A study of Mus musculus with 8 samples.

Results

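The IL-10 family gene cluster lies on mouse chromosome 1 and holds the cytokine genes *Il24*, *Il20*, *Il19* and *Il10*, with the kinase gene *Mapkapk2* beside them. These 5 members were chosen by gene symbol out of the 23284 genes listed in the expression tables, and each had a single row there. RNA sequencing covered naive CD4 T cells and the effector subsets Th1, Th2 and Th17, with 2 libraries in each of the 4 groups and 8 libraries in all. All cells came from DO11.10 Tg mice, in which CD4 T cells bear a transgenic TCR for an OVA peptide, and the methods give an age of 6 to 12 weeks for the mice used. Naive cells were CD44low CD62Lhi CD4 T cells sorted from spleen and were not cultured. The effector groups grew from such cells over 6 days, stimulated with OVA peptide (0.3 μM in the methods) on irradiated splenocytes from which T cells had been removed. For DO11.10 cells the methods take these splenocytes from BALB/c mice. Medium for Th1 held IL-2 (30 U/ml), IL-12 (100 U/ml) and an antibody to IL-4 (1 μg/ml). Medium for Th2 held IL-2 (30 U/ml), IL-4 (100 U/ml) and an antibody to IFN-γ (10 μg/ml). Medium for Th17 held IL-6, IL-1β and IL-23 (10 ng/ml each) and antibodies to IL-4 and to IFN-γ (10 μg/ml each), and the labels list no IL-2 for it. The labels do not say whether the libraries of a group came from separate mice or cultures, so the p-values measure the spread between these libraries only.

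IL-10 is a cytokine that restrains inflammation, and many kinds of T cell make it, Th1 and Th2 cells among them. It binds a receptor of the IL-10RA and IL-10RB chains, which signals through JAK1, TYK2 and STAT3. IL-19, IL-20 and IL-24 share receptors built from IL-20RA, IL-20RB and IL-22RA1 and are known mainly for their action on epithelial cells. *Mapkapk2* encodes MK2, a kinase activated by p38 MAP kinases that acts on RNA-binding proteins such as tristetraprolin and so on the stability and translation of cytokine mRNA.

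The 5 members span 215 kb of chromosome 1 in mm10, and all are protein-coding. In order along the chromosome, *Il24* lies at chr1:130882074-130887411 on the minus strand, with up to 6 exons in a GENCODE transcript. *Il20* follows at chr1:130907192-130911296 (minus strand, up to 5 exons) and *Il19* at chr1:130932656-130939241 (minus strand, up to 6 exons). *Il10* lies at chr1:131019845-131024970 on the plus strand with 5 exons, and *Mapkapk2* at chr1:131053704-131097543 on the minus strand with up to 10 exons. The gaps between neighbours were 19.8 kb from *Il24* to *Il20*, 21.4 kb to *Il19*, 80.6 kb to *Il10* and 28.7 kb to *Mapkapk2*. No other GENCODE gene overlaps the 4 cytokine genes, whereas the predicted genes *Gm25549* and *Gm37084* lie within *Mapkapk2* and could share reads with it.

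The RefSeq promoter table (build GRCm38.p6) had an entry for 3 of the 5 members. These were *Il20*, *Il19* and *Mapkapk2*, and all are shown. The mRNA of *Il19* and *Mapkapk2* rose in every effector subset, whereas that of *Il20* stayed at or near 0. The windows reach 250 bases upstream of the RefSeq start, on the minus strand and written 5′ to 3′. For *Il20* and *Mapkapk2*, bases that GENCODE or RefSeq draw inside the gene were left off, so 95 and 222 bases are shown. The whole window of *Il19* lies within the RefSeq gene, which reaches on to position 130945457, and outside the GENCODE gene, and it is shown in full. Capitals mark the match to TTCNNNGAA, the spaced half-sites of STAT proteins.
Il20, chr1:130911452-130911546: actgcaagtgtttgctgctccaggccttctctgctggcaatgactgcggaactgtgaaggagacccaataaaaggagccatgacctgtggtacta
Il19, chr1:130940116-130940365: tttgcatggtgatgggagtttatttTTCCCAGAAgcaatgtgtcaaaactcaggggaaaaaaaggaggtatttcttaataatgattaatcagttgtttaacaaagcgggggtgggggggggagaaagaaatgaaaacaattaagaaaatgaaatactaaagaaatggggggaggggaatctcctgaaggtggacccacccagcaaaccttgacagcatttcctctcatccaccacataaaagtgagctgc
Mapkapk2, chr1:131097872-131098093: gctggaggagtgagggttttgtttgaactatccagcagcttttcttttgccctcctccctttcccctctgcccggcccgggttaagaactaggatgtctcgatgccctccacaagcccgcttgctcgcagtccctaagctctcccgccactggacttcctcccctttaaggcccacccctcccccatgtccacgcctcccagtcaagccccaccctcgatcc
Over the full 250 bases, the GC content was 52.8% for *Il20*, 42.0% for *Il19* and 60.4% for *Mapkapk2*, with 2, 1 and 9 CpG dinucleotides against a median of 6 over the 32851 windows of the table. On both strands, the motifs searched were the AP-1 motif TGANTCA, held by 6.75% of all windows, the STAT motif TTCNNNGAA (7.02%), the TATA box as TATAAA (12.4%), the E-box as CACGTG (6.02%) and the NF-κB motif GGAANTCCC (1.43%), none of which overlaps another in the windows shown. The match in *Il19* was the only match in the 3 windows. The *Il20* window starts at the gene's start in the expression tables, whereas those of *Il19* and *Mapkapk2* start 874 and 300 bases upstream of it.

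Expression was deposited as FPKM, a fragment number scaled by exon length and by library depth, so levels may be compared between genes. The confidence intervals in the files implied 14463466 to 21058286 fragments per library, lowest in the 2 naive libraries. Markers of the labelled cells included *Ifng* at 802 and 614 FPKM in Th1, *Il13* at 150.2 and 143 in Th2 and *Il17a* at 347 and 335 in Th17. Against the labels, the Th1 marker *Cxcr3* was at 8.01 and 9.35 FPKM in Th1 and 11.3 and 11.5 in Th17, and the naive marker *Il7r* at 90.6 and 76.5 in naive cells and 187 and 165 in Th1. A list of 4 genes of neutrophils and their precursors summed to at most 7.65 FPKM and was higher in replicate 1 of every group, naive cells included. *Mpo* shows this in naive cells (0.373 and 0.0187 FPKM) and in Th1 (4.89 and 0 FPKM). Leaving out any of these libraries changed no call for a member. Differences between groups are on the log2(FPKM + 1) scale, which understates the change of genes with low levels, and come from limma over the 11198 genes whose FPKM averaged 1 or more. A difference was called at an adjusted p (Benjamini-Hochberg) under 0.05. In bulk RNA, fewer cells that express a gene and less RNA of it per cell cannot be told apart.

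*Il24* was the most abundant of the 4 cytokine mRNAs in all 6 effector libraries and almost absent from naive cells. Its level was 0.0958 and 0.0962 FPKM in the naive libraries. It was 139 and 112 FPKM in Th1, with 418 and 374 in Th2 and 333 and 335 in Th17. Every effector library lay far above both naive libraries, and the subsets did not overlap, in the order Th1, Th17, Th2. The naive values rest on 4 fragments over both libraries. Against these, the ratio of depth-scaled fragments was 1307 (95% exact interval 510.3 to 4799) in Th1, 4124 (1610.5 to 15137) in Th2 and 3475 (1357 to 12757) in Th17, where the intervals cover counting error only.

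The log2 difference from naive was 6.84 (SE 0.12) in Th1, 8.50 in Th2 and 8.25 in Th17, with adjusted p-values from limma of 1.17e-07, 6.01e-08 and 1.09e-07. Of the 11198 genes tested, only 7 had a difference from naive of at least this size in Th2, *Il24* included, and 8 in Th17 and 25 in Th1. Among all 23284 genes of a library, *Il24* ranked 161 and 170 from the top in Th2, 190 and 203 in Th17, and 519 and 640 in Th1. Between the subsets, Th1 was lower than Th2 by a log2 difference of -1.66 (95% confidence interval -1.95 to -1.37, limma adjusted p = 8.97e-05) and lower than Th17 by -1.42 (-1.71 to -1.12, limma adjusted p = 0.00031). The mean FPKM of Th1 was 0.316 of that of Th2. Th17 and Th2 did not differ beyond their spread, with a difference of -0.24 (-0.54 to 0.05, limma adjusted p = 0.154), although the difference was called after median scaling (-0.43, limma adjusted p = 0.0385).

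**Figure D1:**
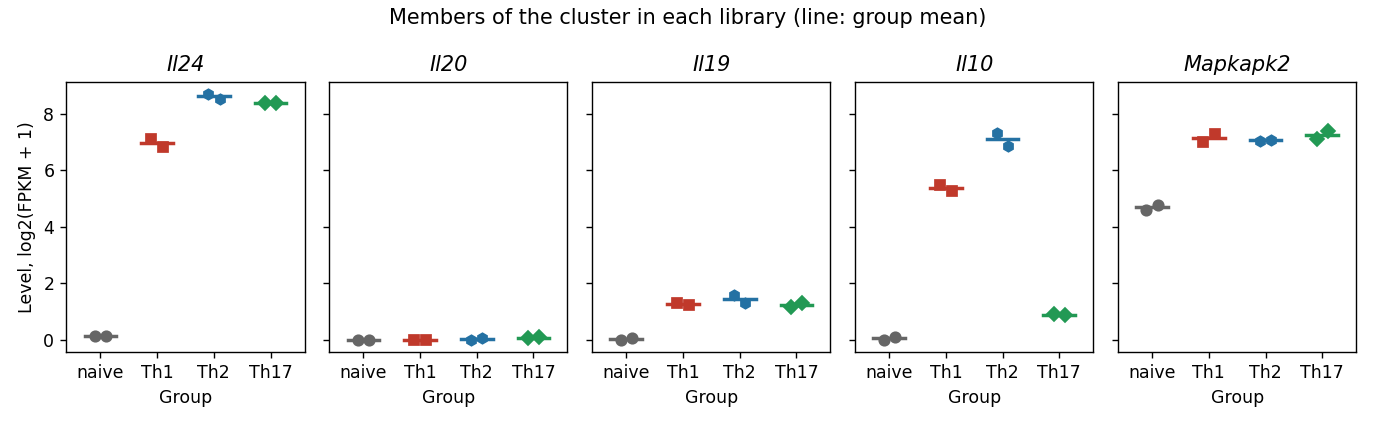
Level of each member in each library as log2(FPKM + 1) on a shared axis, with naive, Th1, Th2 and Th17 on the horizontal axis, a point per library and a line at the group mean. *Il24* and *Mapkapk2* sit high in all 3 effector subsets, *Il10* sits high in Th1 and Th2 and near 1 in Th17, *Il19* sits between 1 and 2 in effector cells, and *Il20* lies at the base line.

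*Il10* was high in Th2, lower in Th1 and close to absent in Th17. It was listed at 0 and 0.0796 FPKM in the naive libraries and at 43.7 and 38.1 in Th1. The Th2 libraries held 159.8 and 116 FPKM, and the Th17 libraries only 0.901 and 0.827. The 4 groups did not overlap, in the order naive, Th17, Th1, Th2. The 2 Th17 values rest on 32 and 22 fragments, against 5377 and 3857 in Th2, so the mRNA was present in Th17 at a low level. Relative to the 2 fragments of the naive libraries, the ratio of depth-scaled fragments was 1033 (95% exact interval 286 to 8530) in Th1, 3479 (963 to 28728) in Th2 and 21.9 (5.77 to 185) in Th17.

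The log2 difference of *Il10* from naive was 5.33 (SE 0.16) in Th1 and 7.05 in Th2, with limma adjusted p-values of 4.66e-07 and 1.62e-07. In Th17 it was 0.84 (95% confidence interval 0.47 to 1.22, limma adjusted p = 0.00264), and 2673 of the 11198 genes tested had a difference of that size or more. This last call was lost with quantile normalization (0.16, limma adjusted p = 0.515). Th17 lay below Th2 by a log2 difference of -6.20 (-6.58 to -5.83, limma adjusted p = 3.08e-06), a mean FPKM of 0.00626 of that of Th2. Only 22 of the genes tested, *Il10* among them, had a largest difference between subsets of this size. Th1 lay above Th17 by 4.49 (4.11 to 4.86, limma adjusted p = 8.22e-06) and below Th2 by -1.71 (-2.09 to -1.34, limma adjusted p = 0.000231).

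*Il10* and *Il24* thus parted in Th17. *Il10* made up 23.8% and 25.2% of the summed FPKM of the 4 cytokine genes in Th1, with 27.6% and 23.6% in Th2, but 0.269% and 0.245% in Th17. The ratio of *Il10* to *Il24* FPKM was 0.315 and 0.341 in the Th1 libraries, 0.382 and 0.311 in those of Th2, and 0.00271 and 0.00247 in those of Th17. The Th1 and Th2 ratios overlapped, although each gene by itself was lower in Th1 than in Th2.

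*Il19* was present at low level in the 3 effector subsets. It was listed at 0 and 0.0536 FPKM in naive cells, at 1.47 and 1.38 in Th1, at 2.04 and 1.499 in Th2, and at 1.25 and 1.47 in Th17. Both naive libraries lay below every effector library, Th1 and Th17 overlapped, and both Th2 libraries lay above them. These levels rest on 29 to 51 fragments per effector library, against 1 fragment over both naive libraries, and the ratio to naive is therefore wide, at 66.3 (95% exact interval 11.6 to 2649) in Th2. The log2 differences from naive were 1.24 (SE 0.13) in Th1, 1.43 in Th2 and 1.20 in Th17, with limma adjusted p-values of 0.00017, 7.18e-05 and 0.000187. No difference between subsets was called, with -0.19 (95% confidence interval -0.50 to 0.13) for Th1 minus Th2, -0.23 (-0.54 to 0.09) for Th17 minus Th2 and 0.04 (-0.27 to 0.36) for Th1 minus Th17. Quantile normalization alone brought a call, for Th17 minus Th2 (-0.55, limma adjusted p = 0.0478).

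*Il20* was not detected above a single fragment in any library. It was listed at 0 in both naive and both Th1 libraries and in 1 of the Th2 libraries. The remaining Th2 library held 0.0535 FPKM and the Th17 libraries 0.0501 and 0.0668, each the value of 1 fragment. A count of 0 allows up to 3 fragments, which is 0.157 to 0.212 FPKM in the libraries listed at 0. *Il20* did not pass the filter and was not tested. Without the filter, the difference between Th17 and naive was 0.08 (limma adjusted p = 0.038), and it rests on those single fragments.

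*Mapkapk2* was the only member well expressed in naive cells, and it rose in the 3 effector subsets. It was at 23.4 and 26.5 FPKM in naive cells, 129 and 155 in Th1, with 131 and 135 in Th2 and 138 and 169.8 in Th17. Effector libraries all lay above both naive libraries, Th1 overlapped Th2 and Th17, and both Th17 libraries lay above those of Th2. The mean rose 5.68-fold in Th1, 5.32-fold in Th2 and 6.16-fold in Th17. On the log2 scale this was 2.46 (SE 0.14), 2.37 and 2.57, with limma adjusted p-values of 9.27e-06, 9.29e-06 and 6.57e-06. Between the subsets no difference was called. The intervals were -0.26 to 0.43 for Th1 minus Th2 (difference 0.09), -0.14 to 0.55 for Th17 minus Th2 (0.20) and -0.46 to 0.23 for Th1 minus Th17 (-0.11), and the sign of the first and the last changed with the scaling or with a library left out. Of the genes tested, 85.9% had a largest difference between subsets at least as large as that of *Mapkapk2*, against 83.0% for *Il19*, 8.33% for *Il24* and 0.196% for *Il10*.

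**Figure D2:**
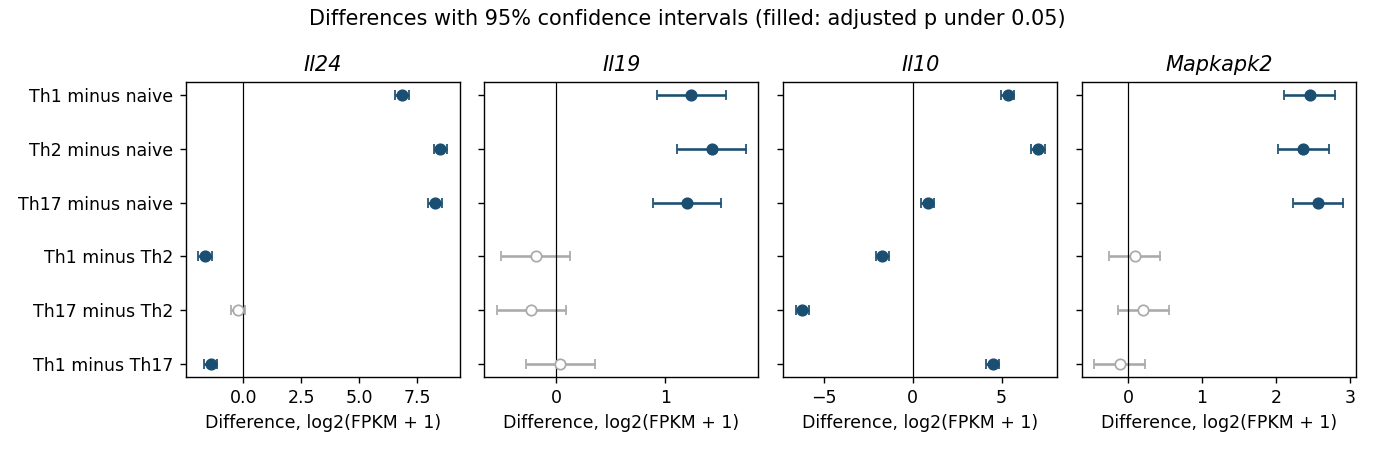
Log2 difference with its 95% confidence interval for each of 6 comparisons, a panel for each of the 4 members tested, each with its own horizontal axis; filled points have an adjusted p under 0.05. All 4 members lie right of 0 against naive, and only *Il24* and *Il10* have filled points between subsets.

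Counted over the comparisons, the 4 members tested all exceeded the naive level in each effector subset. *Il24* and *Il19* passed the filter only through their effector levels and *Il10* only through those of Th1 and Th2, so in those subsets they had to differ from naive. *Il10* was below 1 FPKM in Th17 as well, so its differences between Th17 and Th1 or Th2 were also in part set by the filter. Of all genes tested, 33.8% were higher and 33.5% lower in Th1 than in naive cells, with 31.8% and 38.7% for Th2 and 37.5% and 29.8% for Th17, and 24.8% were higher in all 3 subsets. Between Th1 and Th2, 2 of the 4 members were called, both lower in Th1, against 16.9% of all genes lower and 27.4% higher in Th1. Between Th17 and Th2, only *Il10* was called, lower in Th17 as were 12% of all genes, with 31.7% higher. Between Th1 and Th17, *Il24* was lower in Th1 and *Il10* higher, against 16% of all genes lower and 9.17% higher. *Il10* alone was called in all 3 comparisons between subsets, as were 9.14% of the genes tested.

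Over the 8 libraries, on the log2(FPKM + 1) scale, *Il24*, *Il19* and *Mapkapk2* followed each other, with Pearson's r of 0.964 to 0.976 between them. *Il10* followed them less closely, with r of 0.729 to *Il19*, 0.617 to *Il24* and 0.587 to *Mapkapk2*. These values are a description, since the libraries fall into 4 groups and the naive group sets much of r. Among 5403 genes whose group means spanned at least 1 on that scale, 237 had r above 0.98 to *Il24*, 110 to *Il19* and 359 to *Mapkapk2*, but only 2 to *Il10*. The 2 genes closest to *Il10* were *Oit3* (r = 0.994, mean FPKM 0.0262 in naive, 2.51 in Th1, 5.08 in Th2 and 0.350 in Th17) and *Tnfsf13b*, which encodes the B cell survival factor BAFF (r = 0.987). The next was *Rrbp1* (r = 0.979), a ribosome-binding protein of the endoplasmic reticulum. Closest to *Il24* were *Glipr2*, *Fam162a* and *Eif4ebp1*, to *Il19* *Cdca7*, *Gnpda1* and *Asns*, and to *Mapkapk2* *Pkm2*, *Orc1* and *Zranb3*.

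The cluster is flanked by genes that moved in several directions. Within 500 kb of the span the files list 17 other genes, and 11 passed the filter. Of these, 5 were higher and 6 lower in Th1 than in naive cells, 3 and 6 in Th2, and 3 and 6 in Th17 (4 and 6 in the fit blocked by replicate number). Their median differences from naive were -0.73, -0.74 and -0.90, where all genes tested had -0.01, -0.11 and 0.08. Of all genes tested, 33.8% were higher and 33.5% lower in Th1, with 31.8% and 38.7% in Th2 and 37.5% and 29.8% in Th17. *Faim3*, next to *Il24*, had a mean level of 0.918 FPKM in naive cells against 7.60 in Th1, 6.80 in Th2 and 7.97 in Th17, and it rose by 2.17, 2.04 and 2.24 on the log2 scale (limma adjusted p = 1.3e-05, 1.51e-05 and 9.88e-06). *Dyrk3*, a kinase gene next to *Mapkapk2*, had 0.0702 FPKM in naive cells and 5.96, 4.22 and 5.48 in the subsets, with log2 differences of 2.70, 2.28 and 2.60 (limma adjusted p = 1.92e-06, 3.45e-06 and 2.09e-06). *Faim3*, *Dyrk3* and *Fam72a* passed the filter only through their effector levels, and *Daf2* only through its naive level. Farther out, *Ikbke*, which encodes a kinase of the NF-κB and interferon pathways, fell from 140.4 FPKM in naive cells to 36.1, 23.1 and 37.6, and *Rassf5* from 115 to 39.2, 53.3 and 42.6. *Cd55*, a complement regulator, fell from 24.0 to 2.71, 4.27 and 4.39. The receptor genes *Pigr* and *Fcamr*, on the side of *Il24*, were at or below 0.118 FPKM in every group mean.

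**Figure D3:**
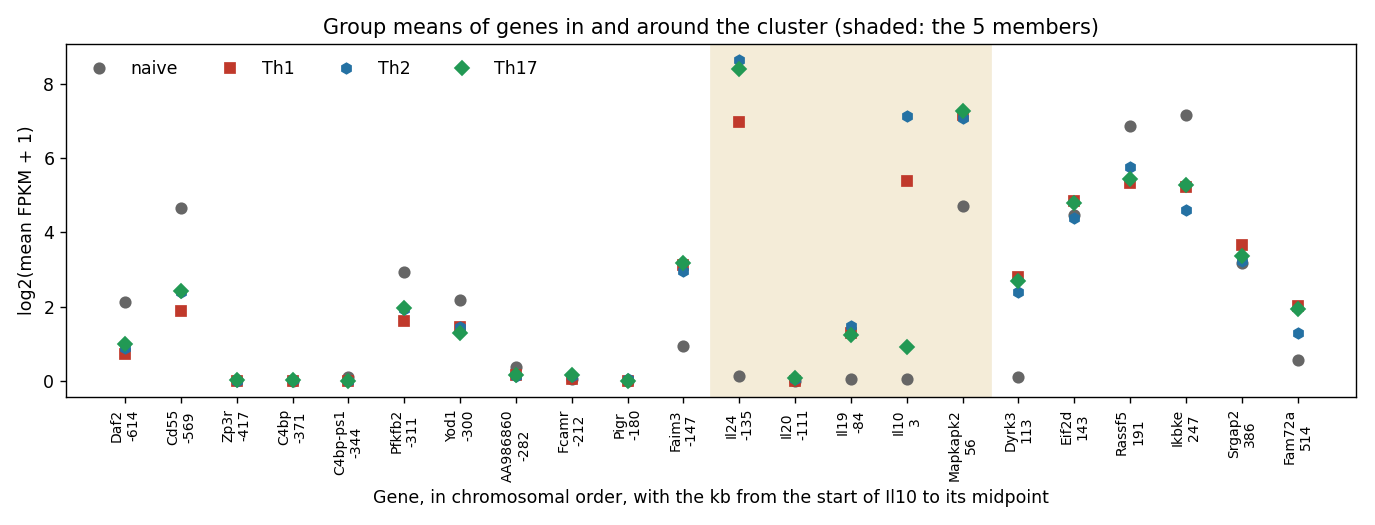
Group means of the 5 members (shaded) and of the 17 genes within 500 kb, in chromosomal order, as log2(mean FPKM + 1); the number under each gene is the distance in kb from the start of *Il10* to its midpoint. *Il24* and *Il10* show the widest gaps between naive cells and Th1 or Th2, and the *Il10* point of Th17 lies far below those of Th1 and Th2.

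Between subsets, 5 of the 11 flanking genes were higher in Th1 than in Th2 and 2 lower, 3 were higher in Th17 than in Th2 and 1 lower, and 1 was lower in Th1 than in Th17. In the fit blocked by replicate number, the 3 comparisons had 5 higher and 3 lower, 4 higher and 1 lower, and 1 higher and 2 lower. Without the block, 27.4% of all genes tested were higher and 16.9% lower in Th1 than in Th2. For Th17 against Th2 these shares were 31.7% and 12%, and for Th1 against Th17 9.17% and 16%. *Faim3* was not called between any subsets, and *Dyrk3* was higher in Th1 than in Th2 by 0.42 (limma adjusted p = 0.0237). None of the flanking genes tested showed a difference between Th17 and Th2 near the -6.20 of *Il10*, their range being -0.32 for *Rassf5* to 0.67 for *Ikbke*.

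Of the factors known for control of *Il10* in T cells, *Maf*, which encodes c-Maf, and *Nfil3* had the same order of group levels as *Il10*. The share of all genes tested with this order was not counted, so this is a description only. *Maf* was at 1.94 and 1.99 FPKM in naive cells, 27.5 and 20.5 in Th1, with 95.5 and 104 in Th2 and 8.61 and 6.54 in Th17. As with *Il10*, the 4 groups did not overlap. *Maf* in Th17 lay below Th2 by a log2 difference of -3.56 (limma adjusted p = 1.94e-05) and below Th1, which stood 1.54 above it (limma adjusted p = 0.00081). *Nfil3* was at 0.928 and 0.736 FPKM in naive cells and at 119.8 and 128 in Th1, with 252 and 248 in Th2 and 85.1 and 96.8 in Th17, again without overlap of the groups. Its Th17 level was lower than that of Th2 by a log2 difference of -1.45 (limma adjusted p = 0.000127), and Th1 exceeded Th17 by 0.45 (limma adjusted p = 0.022). *Prdm1*, which encodes Blimp-1, was at 22.5 FPKM on average in Th1, 13.0 in Th2, 3.14 in Th17 and 2.03 in naive cells, and was lower in Th17 than in Th1 and Th2 (limma adjusted p = 4.17e-05 and 0.000165). *Etv5* was likewise highest in Th1, at 67.5 FPKM against 4.83 in Th2 and 1.26 in Th17.

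The remaining factors had other orders. *Irf4* was at 113 FPKM in Th1, 184 in Th2 and 165 in Th17 against 1.88 in naive cells, and Th17 and Th2 were not told apart (-0.16, limma adjusted p = 0.308). *Bhlhe40*, known as a repressor of *Il10*, was at 167, 94.3 and 193 FPKM and was higher in Th17 than in Th2 by 1.08 (limma adjusted p = 0.0151). It was also higher in Th1 than in Th2, by 0.88 (limma adjusted p = 0.0313), and its Th2 libraries were apart, at 67.5 and 121 FPKM. Its Th1 and Th17 levels overlapped and were not told apart (-0.20, limma adjusted p = 0.633). *Batf* was highest in Th2 (355 FPKM, against 41.2 in Th1 and 94.4 in Th17). *Jun* was at 7.04 FPKM in Th17, below Th1 (33.1), Th2 (15.5) and naive cells (37.3). Of the subset regulators, *Tbx21* was at 47.9 FPKM in Th1 and *Gata3* at 130.0 in Th2. All 17 factors were tested. *Nfil3*, *Bhlhe40*, *Etv5* and *Tbx21* passed the filter only through effector levels, and *Ahr* only through Th2. A rise of these genes over naive was therefore in part set in advance. Against naive cells, 9 were higher and 5 lower in Th1, with 11 and 3 in Th2 and 9 and 3 in Th17, and the median differences were 0.40, 1.43 and 0.45. Between subsets, 6 were higher and 10 lower in Th1 than in Th2, 3 higher and 9 lower in Th17 than in Th2, and 7 higher and 5 lower in Th1 than in Th17. With the block, 5 rather than 3 were lower in Th17 than in naive cells, and in 4 of the other 5 comparisons 1 more was lower. The median difference of the list between Th17 and Th2 was -0.43, against 0.18 over all genes tested. As a background without the block, 33.8% (Th1), 31.8% (Th2) and 37.5% (Th17) of all genes tested were called above naive. Below naive were 33.5%, 38.7% and 29.8%, and the median differences were -0.01, -0.11 and 0.08. For Th1 minus Th2, Th17 minus Th2 and Th1 minus Th17, 27.4%, 31.7% and 9.17% were called higher. Called lower were 16.9%, 12% and 16%.

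**Figure D4:**
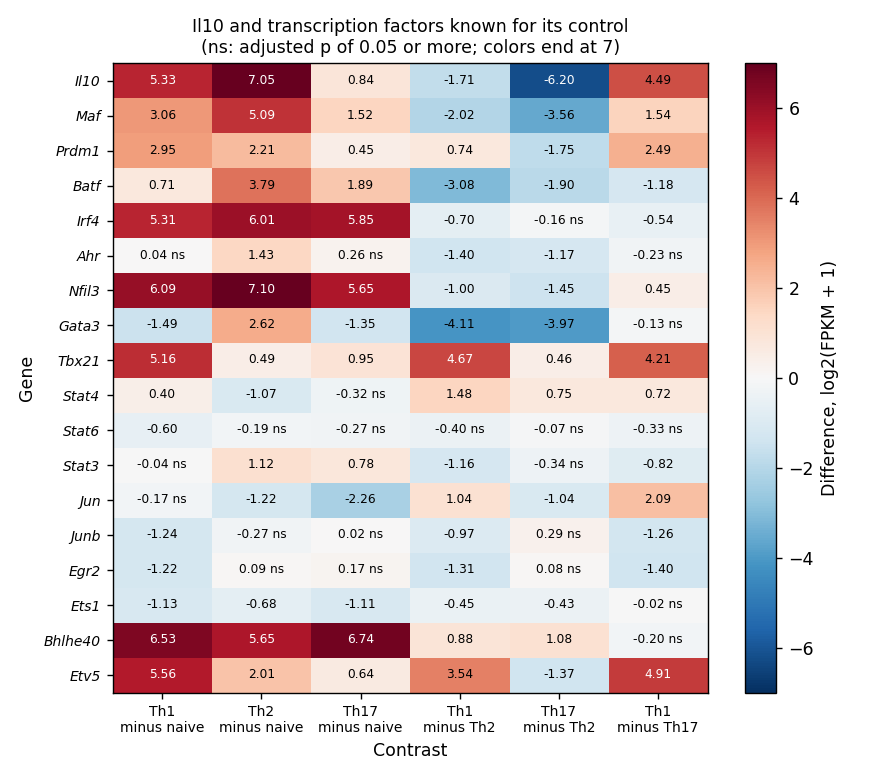
Log2 differences of *Il10* (top row) and of 17 transcription factors in 6 comparisons, red for higher and blue for lower in the group named first; values marked ns had an adjusted p of 0.05 or more. *Maf* and *Nfil3* carry the signs of *Il10* in all 6 columns, and *Irf4* and *Bhlhe40* are red against naive in all 3 subsets.

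The genes that receive or relay these cytokines were partly in place. *Il10ra*, the ligand-binding chain for IL-10, was at 5.55 and 8.07 FPKM in naive cells, 15.0 and 18.8 in Th1, with 40.7 and 41.9 in Th2 and 11.4 and 13.9 in Th17. It was highest in Th2, where *Il10* was highest too, and was above naive in all 3 subsets, by 1.21, 2.46 and 0.82 (limma adjusted p = 0.00102, 2.57e-05 and 0.00639). The shared chain *Il10rb* fell from 22.4 FPKM to 10.9, 14.1 and 13.5. *Socs3*, a feedback inhibitor induced by STAT3, was at 187 FPKM in Th2, against 76.7 in naive cells, 56.0 in Th1 and 77.5 in Th17. *Stat3* was at 111 FPKM in Th2 and 88.0 in Th17 and was higher than naive (51.2) in both, whereas in Th1 (49.2) no difference was called.

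The receptor chains for IL-19, IL-20 and IL-24 were scarce in these cells. *Il22ra1* was listed at 0 in every library. *Il20ra* had a mean of at most 1.08 FPKM, in Th2, and *Il20rb* of at most 0.562, in Th17. Of the 13 receptor and relay genes, 8 passed the filter. Against naive cells, 2 were higher and 5 lower in Th1, with 4 and 4 in Th2 and 3 and 3 in Th17, and the median differences were -0.45, 0.24 and -0.09. Between subsets, 2 were higher and 3 lower in Th1 than in Th2 (2 and 5 with the block), and 2 and 2 in Th17 than in Th2 (2 and 3 with the block). Between Th1 and Th17, 0 were higher and 2 lower without the block, and 3 higher and 3 lower with it. Shares of all genes tested that exceeded naive, without the block, were 33.8% (Th1), 31.8% (Th2) and 37.5% (Th17). Those lower were 33.5%, 38.7% and 29.8%, and the medians of all genes -0.01, -0.11 and 0.08. For Th1 minus Th2, Th17 minus Th2 and Th1 minus Th17, the shares higher were 27.4%, 31.7% and 9.17%. The shares lower were 16.9%, 12% and 16%.

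Among the IL-10 family cytokines encoded elsewhere, *Il22* went the opposite way to *Il10* between Th17 and either Th1 or Th2. It was listed at 0 in both naive libraries and was at 0.497 and 0.484 FPKM in Th1, with 1.21 and 1.71 in Th2 and 238 and 419.9 in Th17. Th17 was above Th2 by a log2 difference of 7.02 (limma adjusted p = 6.6e-06), where *Il10* stood at -6.20. Its near-identical copy *Iltifb* shares reads with it, so its 159 FPKM in Th17 and the split between the copies are uncertain. Calls for the copies are therefore not independent of each other. *Il28a* and *Il28b* were at or near 0 throughout. Both genes tested, *Il22* and *Iltifb*, passed the filter only through their Th17 levels, so Th17 had to differ from the other groups. Both were higher than naive in Th2 and Th17, as were 31.8% and 37.5% of all genes tested, and neither was called in Th1. With the block, *Il22* was also called between Th1 and naive (limma adjusted p = 0.0444), and both were lower in Th1 than in Th2 (limma adjusted p = 0.0293 and 0.0493).

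The p38 and MK2 pathway did not follow *Mapkapk2* as a whole. The sister kinase gene *Mapkapk3* rose with it, from 12.4 and 13.3 FPKM in naive cells to 38.7 and 40.7 in Th1, with 41.3 and 40.8 in Th2 and 66.0 and 74.3 in Th17. Its log2 differences were 1.56, 1.60 and 2.36 (limma adjusted p = 1.12e-05, 8.13e-06 and 1.44e-06), and unlike *Mapkapk2* it was higher in Th17 than in Th2 (0.76, limma adjusted p = 0.00123). *Mapk14*, which encodes p38α, the kinase that activates MK2, fell from 51.8 FPKM to 35.0 in Th1, 9.62 in Th2 and 21.6 in Th17. *Mapk13* (p38δ) rose most in Th1, from 0.0554 to 5.17 FPKM, and passed the filter only through its effector levels. *Mapk12* (p38γ) was highest in Th2, at 8.52 FPKM. The upstream kinase gene *Map2k6* was likewise highest in Th2, at 38.1 FPKM against 8.15 in naive cells.

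Several targets and brakes of the pathway fell. *Zfp36*, which encodes the MK2 target tristetraprolin, was at 219 and 215 FPKM in naive cells, 45.9 and 53.9 in Th1, with 62.3 and 86.7 in Th2 and 31.0 and 38.8 in Th17. Its log2 differences from naive were -2.11, -1.55 and -2.61 (limma adjusted p = 6.43e-05, 0.000252 and 1.97e-05). Its relatives *Zfp36l1* and *Zfp36l2* fell in all 3 subsets as well, the latter from 346 FPKM to 51.5, 156 and 79.4. *Dusp1*, a phosphatase that switches p38 off, fell from 46.3 FPKM to 13.8, 9.35 and 11.4. Of the 17 genes of the list, 16 passed the filter. Against naive cells, 4 were higher and 10 lower in Th1, with 5 and 10 in Th2 and 6 and 8 in Th17, and the median differences were -0.50, -0.72 and -0.29. Between subsets, 7 were higher and 5 lower both in Th1 and in Th17 against Th2, and 6 higher and 5 lower in Th1 against Th17. With the block, 8 were higher in each of these comparisons, and 11 rather than 10 were lower in Th1 than in naive cells. All genes tested had median differences from naive of -0.01 (Th1), -0.11 (Th2) and 0.08 (Th17). Without the block, 33.8%, 31.8% and 37.5% of them were above naive, and 33.5%, 38.7% and 29.8% below. Against Th2, 27.4% were higher and 16.9% lower for Th1, and 31.7% and 12% for Th17. For Th1 minus Th17 the shares were 9.17% and 16%.

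**Figure D5:**
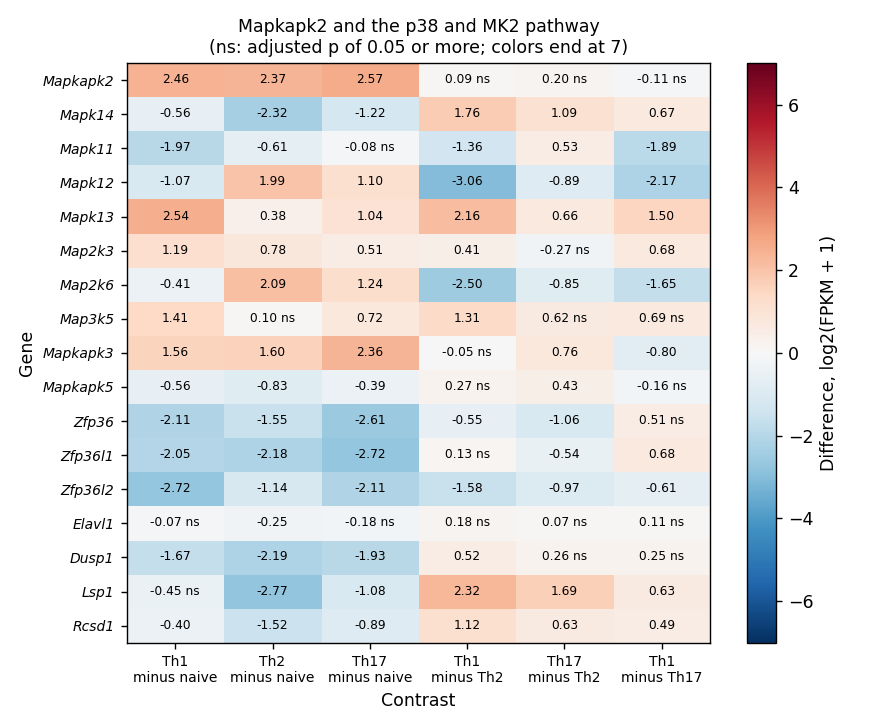
Log2 differences of *Mapkapk2* (top row) and of 16 genes of the p38 and MK2 pathway in 6 comparisons, red for higher and blue for lower in the group named first; values marked ns had an adjusted p of 0.05 or more. *Mapkapk2* and *Mapkapk3* are red against naive in all 3 subsets, whereas *Zfp36*, *Zfp36l1*, *Zfp36l2* and *Dusp1* are blue.

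Genes of other cells, known sources of these cytokines among them, were measured in the same libraries. The cultures had held irradiated splenocytes, and the 5 genes of monocytes and macrophages summed to 17.8 to 19.4 FPKM in naive cells, 12.2 to 13.7 in Th1, 30.4 to 34.1 in Th2 and 22.6 to 23.7 in Th17. None of the 5 was at 0 in both libraries of a group, and in the effector subsets the sum had the order of *Il24*. *Csf1r* was at 3.84 and 3.20 FPKM in naive cells and below 1 FPKM in every effector library. *Emr1* was at 0.890 and 0.938 FPKM in naive cells and 4.63 and 5.88 in Th2, and *Lyz2* at 6.94 and 6.33 in naive cells and 19.9 and 11.7 in Th2. *Cd68* had its highest group mean in Th2, at 9.75 FPKM, and *Cd14* in Th17, at 4.08. Of 4 epithelial and keratinocyte genes, *Krt5* was at 0 in every library, while *Epcam* was at 5.01 and 5.04 FPKM in Th2, at most 1.52 in Th17 and at most 0.105 in Th1. The 5 B cell genes summed to 6.58 to 8.58 FPKM in naive cells, 2.32 to 3.13 in Th1, 6.93 to 9.72 in Th2 and 11.1 to 12.1 in Th17. Genes of regulatory T cells, which can also make IL-10, summed to 8.21 to 15.4 FPKM in naive cells and 2.69 to 2.93 in Th1. They summed to 0.572 to 0.887 in Th2 and 4.31 to 7.33 in Th17. This order of the sum, the reverse of that of *Il10*, was that of *Foxp3*. The other gene, *Ikzf2*, was at 1.82 and 1.80 FPKM in Th1, above 1.28 and 1.57 in Th17. The 2 CD8 T cell genes summed to 54.5 to 93.4 FPKM in naive cells and to at most 13.0 in an effector library. In naive cells *Cd8b1* was at 90.5 and 52.8 FPKM and *Cd8a* at 2.94 and 1.77. Genes of dendritic cells, of mast cells and basophils, of eosinophils and of NK cells summed to at most 3.76 FPKM per list in any library. The part of these cells in the levels of *Il24* and *Il10* was not tested.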

How the data were processed

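RNA sequencing of naive CD4 T, Th1, Th2 and Th17 cells was analysed from the deposited tables, 2 libraries per group. Reads of 50 bases were, per the labels and the methods, aligned to mm10 with TopHat 1.3.2 and Bowtie 0.12.8, and Cufflinks 2.0.2 gave FPKM per gene. The FPKM values with their confidence intervals were deposited by the authors without further scaling being stated. The annotation they used is not given in the sources used here. The methods name a kit that does not keep strand and the labels a stranded kit, so strand is uncertain.

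Rows with the same symbol were summed (23746 rows, 240 symbols in several rows, 23284 genes). The model was limma 3.58.1 (R 4.3.3, functions lmFit and eBayes, with a trend of variance on mean) on log2(FPKM + 1) with 4 group means over all 8 libraries, two-sided, for the 11198 genes whose FPKM averaged 1 or more. P-values were adjusted by Benjamini-Hochberg over the genes tested, and the model was tested on simulated data. Python 3.11.15 with pandas 2.3.3 and numpy 2.4.6 served for the tables. Fragments were estimated as (2 × FPKM / (upper bound − FPKM)) squared, and of 30499 values of at most 20 fragments, 70.4% came within 0.05 of a whole number, so no count test was run on them as the main test.

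Replicate numbers come from the labels, which do not say what they share. Deviations of same-numbered libraries from their group means correlated at 0.138 to 0.294 across the 6 pairs of groups, so results of a fit blocked by replicate number are printed where it changes a printed call or moves a count by more than 1.5 times, and for other list counts that it moved. The members, the gene lists and the markers were chosen with earlier results of these data known. Genes named are the members, the lists, the markers and, for each member tested, the 3 genes most like it. A gene of the lists is not reported here and was left out of their counts. Motifs were searched in the RefSeq promoter windows of 250 bases. The alternatives were a pseudocount of 0.1, other filters, median scaling, quantile normalization, a fit of the groups compared only, no trend, the block, single rows for repeated symbols and leaving out each library. Voom on the implied fragments and the block with a pseudocount of 0.1 were chosen after seeing the data. The microarray, flow cytometry and transfer experiments of the study were not analysed here.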

Additional observations from a re-analysis of the deposited data

Results flagged for a closer look

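The following differences between the effector subsets passed the test of the difference itself and are therefore listed here.
The log2 difference of *Il24* was -1.66 for Th1 minus Th2 and -1.42 for Th1 minus Th17, so its rise over naive cells was smaller in Th1. That of *Il10* was -1.71 for Th1 minus Th2, -6.20 for Th17 minus Th2 and 4.49 for Th1 minus Th17, so its rise over naive cells differed among all 3 subsets. All 5 had limma adjusted p-values of 0.00031 or less. *Il10* passed the filter only through its levels in Th1 and Th2, so its differences from Th17 were in part set in advance. Groups of 2 libraries are too small for a test of single libraries that stand apart.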

How the results depend on the processing

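The 24 member differences were computed again with each of the 8 libraries left out (192 values, of which 188 kept direction and side of the threshold) and under 11 other settings (264 values, of which 259 did). Under median scaling, Th17 minus Th2 of *Il24* was -0.43 (limma adjusted p = 0.0385) and passed. Under quantile normalization, that of *Il19* was -0.55 (limma adjusted p = 0.0478) and passed, so that 2 members rather than 1 were past the threshold in that comparison under either scaling. Quantile normalization took Th17 minus naive of *Il10* to 0.16 (limma adjusted p = 0.515), whereas it was 2.85 with the pseudocount of 0.1 and 4.23 with voom on the implied fragments, both called. *Mapkapk2* for Th1 minus Th2 turned to -0.0067 under median scaling and to -0.14 under quantile normalization, and none of these values was called. The cause of these shifts was not tested, but the median of all genes for Th17 minus Th2 was 0.184 as deposited and 0.0245 after median scaling. With a library left out, *Il19* for Th1 minus Th17 ranged from -0.025 (without Th17 replicate 1) to 0.11. *Mapkapk2* for Th1 minus Th2 ranged from -0.048 (without Th1 replicate 2) to 0.22, and for Th1 minus Th17 from -0.26 to 0.035, above 0 without Th1 replicate 1 (0.022) or Th17 replicate 2 (0.035), and none was called. The replicate block changed no call for a member, as for Th17 minus Th2 of *Il24* (-0.24, limma adjusted p = 0.085). Depth limits *Il20*, *Il19* and the naive levels of *Il10* and *Il24*, which rest on few fragments, and with 2 libraries per group an SD or SE is itself rough.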
